A study of Mus musculus with 4 samples.

Results

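The Prader-Willi and Angelman domain is an imprinted stretch of mouse chromosome 7, and 7 of its genes were followed by name: Ube3a, Snhg14, Snrpn, Ndn, Magel2, Mkrn3 and Peg12. They are 7 of the 56883 genes listed in the expression table, and all 7 were among the 14323 genes tested. Of these 7 genes, 2 were higher (Snhg14 and Ube3a) and 2 lower (Ndn and Peg12) in Dnmt1 knockout than in control cells. Snrpn, Magel2 and Mkrn3 did not pass the test. By the same test, 8.3% of all 14323 genes were higher and 8.99% lower. Each of the calls on Snhg14 and Ube3a was lost under some of the alternative analyses described beside them, whereas those on Ndn and Peg12 were lost under 1 alternative, a fit without a trend in the variance.

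The cells were somatostatin-expressing (Sst) interneurons, inhibitory neurons on their way from the basal telencephalon to the cortex. They were sorted for tdTomato fluorescence from the basal telencephalon of E14.5 mouse embryos, with multiple embryos combined and 50000 cells pooled per genotype. Controls (Sst-Cre/tdTomato, 2 libraries) carried the Cre recombinase, expressed from the Sst locus, and the Cre-dependent reporter. Knockout cells (Sst-Cre/tdTomato/Dnmt1 loxP2, 2 libraries) carried the same alleles plus the floxed Dnmt1 allele, so that both genotypes shared Cre and reporter and differed in the floxed allele. The study's methods describe the 2 samples of a genotype as processed separately, each from several embryos, and its embryos as drawn from different litters. They do not tie a library to litters or to a sort, so the p-values measure the spread between these pools. The sex of the pooled embryos was not distinguished, and Xist, the RNA of the inactive X chromosome, stood at 1402 and 1360 normalized counts in the controls and at 3428 and 3311 in the knockouts.

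Genomic imprinting keeps 1 parental copy of a gene silent through DNA methylation laid down in the germ line. In this domain the imprinting centre lies at the common start of Snurf and Snrpn, where the maternal copy is methylated. Snrpn, Snhg14, Ndn, Magel2, Mkrn3 and Peg12 are expressed from the paternal chromosome. Ube3a is expressed from both copies in most tissues and mainly from the maternal copy in mature neurons, where the long antisense extension of Snhg14 runs across it. DNMT1 copies methylation to the new strand after replication, and loss of the paternal genes underlies Prader-Willi syndrome, whereas loss of maternal UBE3A underlies Angelman syndrome. The comparison between genotypes addressed the level of each of these RNAs with and without Dnmt1. RNA-seq counts do not separate the parental alleles, so parental origin was not measured.

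The 7 genes fall into 2 blocks on GRCm39. Ube3a (ENSMUSG00000025326.13, chr7:58878492-58961832, plus strand) is protein-coding and overlaps the end of the long non-coding RNA gene Snhg14 (ENSMUSG00000100826.7, chr7:58957672-59628040, minus strand) by 4161 bases. Snrpn (ENSMUSG00000102252.6, chr7:59630427-59820763, minus strand) follows on the same strand as Snhg14. After a gap of 2174709 bases come Ndn (ENSMUSG00000033585.6, chr7:61995473-62000010, plus strand), Magel2 (ENSMUSG00000056972.7, chr7:62026758-62031388, plus strand), Mkrn3 (ENSMUSG00000070527.4, chr7:62067341-62069887, minus strand) and Peg12 (ENSMUSG00000070526.3, chr7:62111619-62114258, minus strand). These last genes lie within 118786 bases from the start of Ndn to the end of Peg12, and the coding transcript of each has a single exon.

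Start regions of the distal genes and of the imprinting centre are shown because Ndn and Peg12 were lower and their neighbours Magel2 and Mkrn3 were not called. Each is the RefSeq promoter window from 250 bases before to 50 bases after the start, 5′ to 3′ on the strand of the gene. The RefSeq table is of build GRCm38.p6, and each window was placed by its single exact match on GRCm39. Capitals mark CpG, the dinucleotide at which DNMT1 maintains methylation. The windows are those of Snrpn at the Snurf-Snrpn start (chr7:59654898-59655197, minus strand), Ndn (chr7:61997775-61998074, plus strand), Magel2 (chr7:62026477-62026776, plus strand), Mkrn3 (chr7:62069852-62070151, minus strand) and Peg12 (chr7:62114209-62114508, minus strand).
Snrpn: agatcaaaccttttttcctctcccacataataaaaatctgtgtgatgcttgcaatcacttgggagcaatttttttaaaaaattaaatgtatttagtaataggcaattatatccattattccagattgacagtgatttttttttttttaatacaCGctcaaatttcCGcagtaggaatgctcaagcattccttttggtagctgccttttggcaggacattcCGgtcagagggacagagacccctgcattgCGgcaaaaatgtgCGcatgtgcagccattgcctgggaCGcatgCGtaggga
Ndn: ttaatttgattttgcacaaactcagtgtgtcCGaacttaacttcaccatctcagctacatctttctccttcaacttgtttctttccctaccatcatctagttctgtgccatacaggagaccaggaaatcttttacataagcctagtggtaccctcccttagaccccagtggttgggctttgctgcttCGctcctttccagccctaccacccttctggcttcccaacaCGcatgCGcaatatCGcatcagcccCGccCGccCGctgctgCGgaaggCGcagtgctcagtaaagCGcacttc
Magel2: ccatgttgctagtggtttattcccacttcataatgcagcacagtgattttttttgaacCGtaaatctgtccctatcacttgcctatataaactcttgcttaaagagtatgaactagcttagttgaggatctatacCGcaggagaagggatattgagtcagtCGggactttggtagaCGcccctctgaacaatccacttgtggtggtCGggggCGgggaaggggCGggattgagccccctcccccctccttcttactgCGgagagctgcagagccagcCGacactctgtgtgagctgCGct
Mkrn3: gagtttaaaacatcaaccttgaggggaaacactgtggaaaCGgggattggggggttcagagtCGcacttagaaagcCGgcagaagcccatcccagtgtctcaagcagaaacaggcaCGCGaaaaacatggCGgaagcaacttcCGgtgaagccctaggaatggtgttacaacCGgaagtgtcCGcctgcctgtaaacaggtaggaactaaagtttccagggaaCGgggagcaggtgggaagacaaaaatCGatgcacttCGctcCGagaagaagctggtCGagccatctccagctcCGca
Peg12: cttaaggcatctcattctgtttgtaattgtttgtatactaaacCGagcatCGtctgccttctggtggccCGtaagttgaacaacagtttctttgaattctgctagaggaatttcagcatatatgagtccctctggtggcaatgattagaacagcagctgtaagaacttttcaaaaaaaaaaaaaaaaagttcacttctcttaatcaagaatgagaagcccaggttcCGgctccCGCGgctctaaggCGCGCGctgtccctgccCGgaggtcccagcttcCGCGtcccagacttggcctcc

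The window of Ndn held 11 CpGs and that of Peg12 held 12, against 10 in Magel2 and 15 in Mkrn3. The counts of the 2 genes that fell lay between those of the 2 that were not called, and methylation of the windows was not examined. The start in the Ndn window lies 2552 bases from the gene start given above, inside the gene's span. The Snurf-Snrpn window held 7, which was also the median of all 32817 windows in the table, and the Ube3a window held 29. Exact matches on both strands were searched for TGCCGC (the core bound by ZFP57, which protects imprints), GCGCATGCG (NRF1), CAGCTG (an E-box) and AANATGGCG (YY1). Of all windows, 11.6% held the ZFP57 core, 1.75% the NRF1 letters, 16.3% the E-box and 2.37% the YY1 letters. The Snurf-Snrpn window had 1 ZFP57 match, the Ndn window 1 NRF1 match, the Peg12 window 1 E-box, and the Mkrn3 and Ube3a windows 1 YY1 match each. The Magel2 window had none of these letters. A match describes the letters in these windows and says nothing of binding in the sorted cells.

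Across all 14323 genes tested, limma called 17.3% at an adjusted p below 0.05, 8.3% higher and 8.99% lower in knockouts, and the values of the genotypes did not overlap for 57.4%. The median log2 fold change of all tested genes was -0.0033, and that of the 7 domain genes was 0.02. Of the 7 genes, 4 were called and 6 did not overlap between genotypes, so the count without overlap lay closer to its background than the count of calls. All fold changes are on the scale of log2(normalized count + 1), knockout over control.

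**Figure D1:**
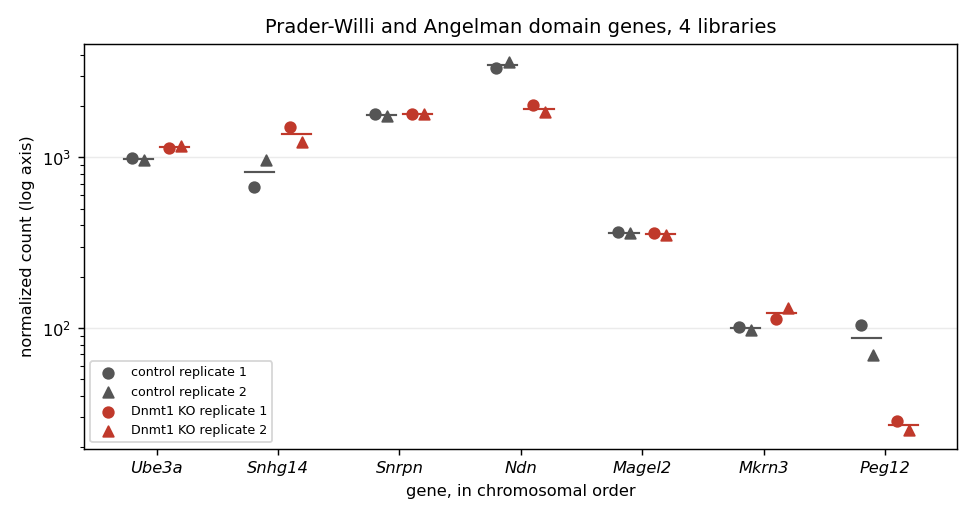
Normalized counts (log axis) of the 7 domain genes, in chromosomal order, in each of 4 libraries; points are libraries, horizontal lines are means of 2 libraries per genotype. Ndn and Peg12 sit lower in both knockouts, Snhg14 sits higher with a wide spread within each genotype, and Snrpn and Magel2 lie at nearly the same height in both genotypes.

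Ndn encodes necdin, a MAGE-family protein that restrains cell cycle entry through E2F1 and is abundant in postmitotic neurons. It stood at 3336 and 3602 normalized counts in the controls and at 2013 and 1846 in the knockouts. Both knockout libraries lay far below both controls, and the libraries of each genotype lay close together, with a ratio of higher to lower of 1.08 in controls and 1.09 in knockouts. The means were 3469 ± 188 and 1930 ± 118 (SD, n = 2 each). The log2 fold change was -0.85 with SE 0.059 (95% CI -0.97 to -0.72, limma adjusted p = 1.75e-07). The call rested on 1690 to 3728 reads per library.

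Peg12, an intronless relative of the Frat genes, which encode inhibitors of GSK3, had the largest fold change of the 7. Its values were 105 and 69.4 normalized counts in the controls and 28.6 and 25.1 in the knockouts. The controls differed from each other by a ratio of 1.51, yet the lower control still lay more than 2-fold above the higher knockout. The log2 fold change was -1.63 with SE 0.27 (95% CI -2.21 to -1.05, limma adjusted p = 0.000674). Peg12 was counted from 117 and 68 reads in the controls and 29 and 23 in the knockouts, so that its relative counting error was the largest of the 7 genes.

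Magel2 encodes a MAGE protein that directs ubiquitination on endosomes and retromer-dependent recycling. Between Ndn and Mkrn3, it stood at 365 and 358.3 normalized counts in the controls and at 358.1 and 349.6 in the knockouts. All 4 libraries lay within a narrow band, and the genotypes were separated by less than 1 count. Its log2 fold change was -0.03 with SE 0.098 and was not called (95% CI -0.24 to 0.18, limma adjusted p = 0.869).

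Mkrn3 encodes a makorin RING-finger ubiquitin ligase known as a brake on the onset of puberty. It had 102 and 98.0 normalized counts in the controls and 113 and 131 in the knockouts. Both knockouts were above both controls, but the difference did not pass the test, with a log2 fold change of 0.28, SE 0.17 (95% CI -0.078 to 0.646, limma adjusted p = 0.288).

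Ratios of neighbours within the distal block restate the single-gene results within each library, since each sets a called gene over an uncalled neighbour. The ratio of Ndn to Magel2, which lie 26747 bases apart on the same strand, was 9.14 and 10.1 in the controls and 5.62 and 5.28 in the knockouts. For Peg12 over Mkrn3, on the minus strand with 41731 bases between them, the ratio was 1.03 and 0.708 in the controls and 0.252 and 0.192 in the knockouts. Neither ratio overlapped between genotypes. A 2-sided exact permutation test of 2 against 2 libraries gave p = 0.333 for each, the smallest p that it can give.

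Snrpn encodes the neuronal Sm protein SmN of the spliceosome and was the only gene of the 7 whose genotypes overlapped. It had 1800 and 1751 normalized counts in the controls and 1795 and 1803 in the knockouts. The higher control lay between the knockouts, and the lower control lay just below all of them. Its log2 fold change was 0.02 with SE 0.057 (95% CI -0.10 to 0.14, limma adjusted p = 0.862). Once the trend of fold change with transcript length and GC content over all genes was removed, it was -0.18 with an adjusted p of 0.0367 in limma, a call in the fit that called 16.7% of all genes. Snurf, which shares its transcripts with Snrpn, had 35.8 and 15.3 normalized counts in the controls and 56.2 and 27.3 in the knockouts and was not called (limma adjusted p = 0.275). The split of shared reads between Snrpn, Snurf and the overlapping Gm38393 is uncertain, but their sum was 1850 and 1786 in the controls and 1872 and 1864 in the knockouts.

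Snhg14 is the host RNA of the Snord115 and Snord116 small nucleolar RNAs, and its far end is the Ube3a antisense transcript. It stood at 670 and 969 normalized counts in the controls and 1512 and 1228 in the knockouts. Both knockouts exceeded both controls, although the controls differed from each other by a ratio of 1.45. The means were 820 ± 211 and 1370 ± 201 (SD, n = 2 each). The log2 fold change was 0.76 with SE 0.13 (95% CI 0.48 to 1.03, limma adjusted p = 0.000824). Its representative transcript is 6861 bases long with 31.0% GC, against medians of 3515 bases and 49.8% GC over tested genes. With the length and GC trend removed, the log2 fold change was -0.04 (limma adjusted p = 0.873), and DESeq2, which called 8.26% of its tested genes, gave an adjusted p of 0.119.

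Ube3a encodes an E3 ubiquitin ligase of the HECT family. It stood at 985 and 959 normalized counts in the controls and 1129 and 1168 in the knockouts. Both knockouts lay above both controls, and the libraries of each genotype lay close together. The means were 972 ± 18.8 and 1149 ± 27.3 (SD, n = 2 each). The log2 fold change was 0.24 with SE 0.067 (95% CI 0.099 to 0.383, limma adjusted p = 0.0210). The Ube3a transcript, at 10462 bases and 37.1% GC, was the longest of the 7. With the length and GC trend removed the log2 fold change was -0.18 (limma adjusted p = 0.0930), and the DESeq2 adjusted p was 0.129. The call was also lost in limma without control 2 (adjusted p = 0.0898) and without knockout 2 (adjusted p = 0.121).

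The library kit preserves strand, but whether counting used strand is not given in the sources used here. Reads from the overlap of Snhg14 and Ube3a, and from genes antisense to Ube3a, may therefore not be told apart. Within the same library, Snhg14 over Snrpn was 0.372 and 0.553 in the controls and 0.842 and 0.681 in the knockouts, and Ube3a over Snrpn was 0.547 and 0.548 against 0.629 and 0.648. Both ratios, of a called gene over the uncalled Snrpn, were higher in the knockouts without overlap (2-sided exact permutation p = 0.333 for each, the smallest possible). Snhg14 over Ube3a was 0.680 and 1.01 in the controls and 1.34 and 1.05 in the knockouts, so that its lower knockout lay only just above its higher control.

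**Figure D2:**
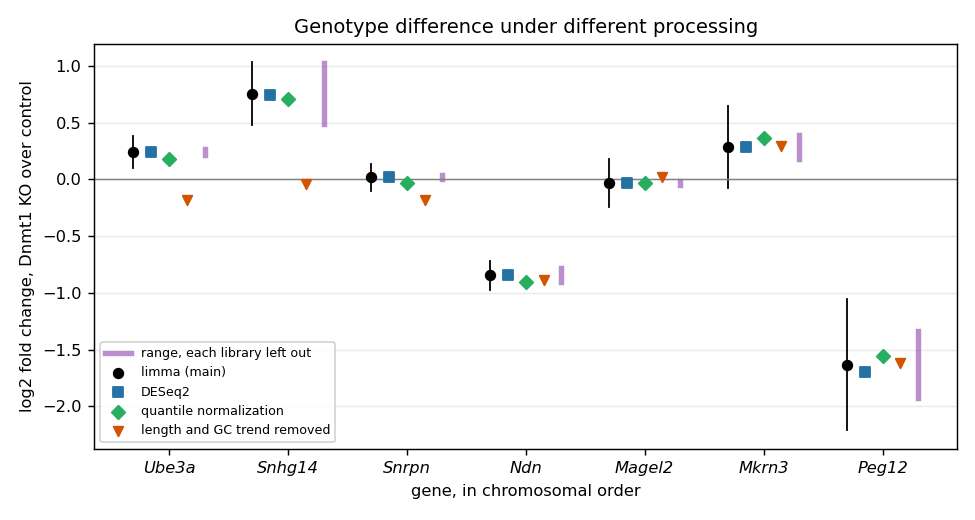
Log2 fold change, Dnmt1 knockout over control, of the 7 domain genes under limma (black, vertical line 95% CI), DESeq2, quantile normalization and with the trend in length and GC taken out, and purple bars for the range when each library was left out. Ndn and Peg12 lie below 0 in each, with Peg12 between -1.93 and -1.34 when a library was left out, whereas Ube3a and Snhg14 fall from 0.24 and 0.76 to -0.18 and -0.04 once the trend is removed.

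Compared per length, Ndn was the most abundant of the 7. Per kilobase of merged exons, the control means were 918 normalized counts for Ndn, 189 for Snrpn, 78.1 for Magel2, 44.7 for Ube3a, 39.3 for Mkrn3, 33.0 for Peg12 and 28.7 for Snhg14. Mkrn3 and Peg12 overlapped between control libraries on this scale, as did Peg12 and Snhg14, so these neighbours in the order were not separated. In the knockouts the same level was 511 for Ndn and 10.2 for Peg12, and Peg12 was then the lowest. Per kilobase of the representative transcript instead, Snhg14 stood at 119 and ranked above Ube3a (92.9) and Magel2 (78.1) in the controls, so its place in the order depended on the length used.

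Other annotated genes between the start of Ube3a and the end of Peg12 were read from the same fit. Of 259 such genes in the table, 63 had a read, 15 were tested, 5 were higher and 0 lower in the knockouts by limma. All 5 lie on the minus strand, as did 14 of the 15 tested, of which 3 had values below 0 and were not called. The 5 called genes are lncRNAs or TEC genes (transcribed regions still to be experimentally tested). The share of TEC genes called higher over the whole genome was 21.8% of 616 tested, with none lower, against 6.96% of 747 lncRNAs, so TEC genes of the domain have a high background.

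Within the span of Snhg14 and on its strand, the TEC gene A230103L15Rik had 19.7 and 23.5 normalized counts in the controls and 76.0 and 50.3 in the knockouts, a log2 fold change of 1.48 (limma adjusted p = 0.00345). Gm44559, a TEC gene antisense within Ube3a, had 4.47 and 6.13 against 29.6 and 17.5. Its log2 fold change was 1.93 (limma adjusted p = 0.0177), which rests on as few as 5 reads in a library. The call on Gm44559 was lost in DESeq2 (adjusted p = 0.119) and in limma without control 1 (adjusted p = 0.0640) or knockout 1 (adjusted p = 0.174). The TEC gene 9330162G02Rik, antisense to the start of Ube3a and reaching past it, was named after its values were seen and is outside the 15. It had 143 and 139 against 303 and 263, a log2 fold change of 1.00 (limma adjusted p = 8.76e-05), and an adjusted p of 0.124 once that trend was taken out.

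Between Snrpn and Ndn, 3 lncRNAs of the long gap were higher. Gm9801 had 292 and 309 normalized counts in the controls and 424 and 440 in the knockouts, a log2 fold change of 0.52 (limma adjusted p = 0.00183). A230057D06Rik (log2 fold change 0.67) and A330076H08Rik (0.78) were the others. They lie upstream of Ndn, which moved the other way. With the length and GC trend removed, Gm9801 and A230103L15Rik were still called, whereas A230057D06Rik, A330076H08Rik and Gm44559 were not (limma adjusted p = 0.168, 0.0888 and 0.111). The call on A330076H08Rik was also lost in DESeq2 (adjusted p = 0.0787) and in limma without control 2 (adjusted p = 0.0527). The 210 small nucleolar RNA genes of the interval gave no test, since 170 were listed at 0, and together they held 19 and 25 reads in the controls and 71 and 54 in the knockouts.

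**Figure D3:**
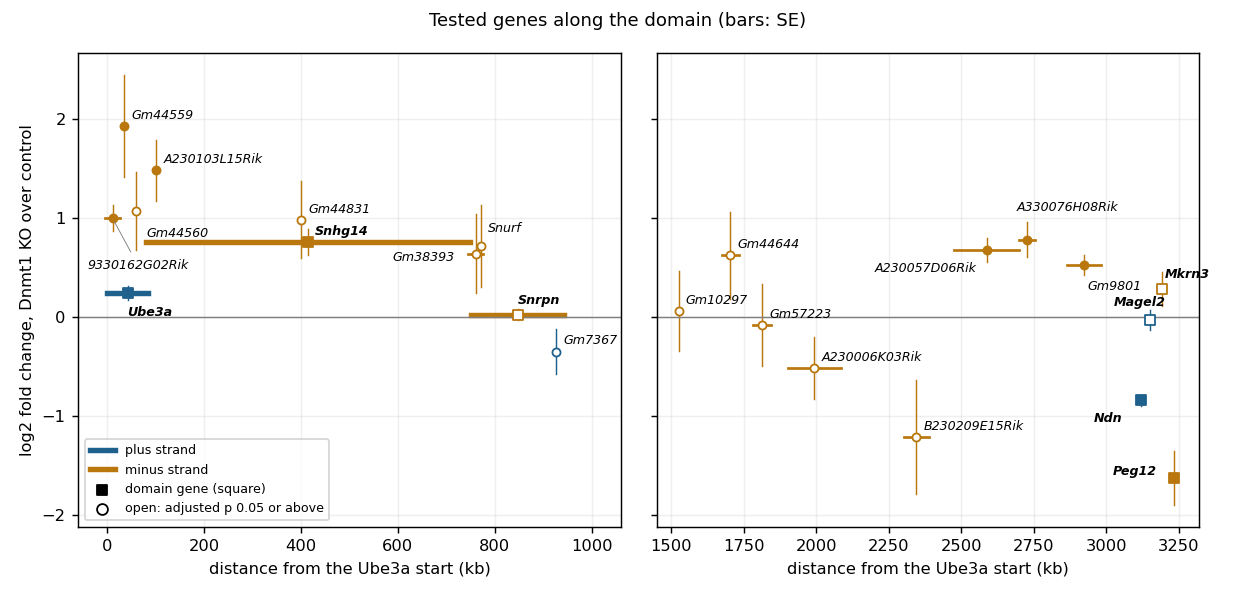
Log2 fold change (knockout over control) of the tested genes of the domain against distance from the Ube3a start in kilobases, coloured by strand, with horizontal bars for the gene's extent and vertical bars for SE. Squares are the 7 domain genes, filled where the adjusted p was below 0.05; filled points above 0 include Snhg14 and Ube3a, and Ndn and Peg12 are the only filled points below 0.

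Protein-coding genes on the Ube3a side of the domain that are expressed from both parental copies were taken from the same fit. Of 9 tested, 1 was higher (11.1%, against 8.3% of all genes tested) and 0 lower (against 8.99%), with a median log2 fold change of 0.11. The gene called was Herc2, a giant ubiquitin ligase that binds UBE3A, at 2525 and 2453 normalized counts in the controls and 2962 and 3042 in the knockouts (log2 fold change 0.27, limma adjusted p = 0.00183). Beyond Peg12, limma called 0 of 7 protein-coding genes tested within 2 megabases, against 17.3% of all genes tested. Of these 7 genes, 2 had an unadjusted limma p below 0.05, and edgeR and DESeq2 also called 0. With 9 and 7 genes, these counts are too small to be told apart from the shares over all genes. The difference between these neighbours and the domain genes was not tested.

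Imprinted genes elsewhere in the genome had calls in both directions, as did all genes tested (8.3% higher and 8.99% lower). Of 19 other paternally expressed genes tested, 2 were higher (10.5%) and 6 lower (31.6%), with a median of -0.13. The lowest were Igf2 (a growth factor, log2 fold change -0.92), Dlk1 (a Notch-related surface protein, -0.83) and Peg10 (a retrotransposon-derived gene, -0.60), while the antisense RNA Kcnq1ot1 (0.55) and Peg13 (0.38) rose. The call on Kcnq1ot1, a long RNA like Snhg14, was lost once the length and GC trend was taken out (limma adjusted p = 0.724), and without knockout 1 its log2 fold change was 0.34, still called. Of 13 maternally expressed genes tested, 2 were higher (15.4%) and 3 lower (23.1%), with a median of -0.11. Here Grb10 (a growth-factor receptor adaptor, -0.85), Asb4 (-0.64) and H19 (-0.44) fell, and Igf2r (0.29) and Meg3 (0.19) rose. Without control 2, Igf2r was at 0.17 and not called (limma adjusted p = 0.229).

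Factors that maintain imprints or silencing were called in 2 of 15 tested, both lower (13.3%, against 8.99% of all genes tested), with a median of 0.04. These were Uhrf1, which brings DNMT1 to replicating DNA (log2 fold change -0.70, limma adjusted p = 8.87e-05), and the helicase Hells (-0.61), both of which are also high in dividing cells. Dnmt1 itself stood at 2238 and 2341 normalized counts in the controls and 2164 and 2210 in the knockouts (log2 fold change -0.07, limma adjusted p = 0.461). Since only part of the gene is floxed, its whole-gene count here cannot show whether the allele was deleted. The paper reports weaker DNMT1 staining in tdTomato cells of E14.5 knockout embryos. It also reports a lower Dnmt1 count in knockout cells sorted from the E14.5 cortex.

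Relatives of the domain genes were compared for the same movement. Of 13 paralogs tested, 1 was higher (7.69%) and 2 lower (15.4%), against 8.3% and 8.99% of all genes tested. Their median was -0.07. Frat1, a paralog of Peg12, had 157 and 165 normalized counts in the controls and 250 and 215 in the knockouts, a log2 fold change of 0.52 (limma adjusted p = 0.0138), opposite to Peg12. Frat2 was not called (0.40, limma adjusted p = 0.130). Maged2 (-0.25) and the ligase Ube3c (-0.23) fell, whereas Maged1, another MAGE gene, stood at 0.06 and the makorins Mkrn1 and Mkrn2 at -0.07 and 0.24, none of them called. Snrpb, which encodes the Sm proteins that SmN replaces in neurons, had a log2 fold change of -0.21 (limma adjusted p = 0.0860), and 0 of 7 Sm core genes were called by limma.

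Among partners of necdin and MAGEL2, 2 of 17 tested were higher (11.8%) and 1 lower (5.88%). These shares lay near the 8.3% and 8.99% of all genes tested. E2f1, the cell cycle factor that necdin binds, had 108 and 154 normalized counts in the controls and 59.2 and 66.6 in the knockouts (log2 fold change -1.03, limma adjusted p = 0.00286). The E2f1 call was lost under 2 of 16 alternatives, and its log2 fold change ran from -1.28 to -0.78 when a library was left out. Dlx5 (0.38) and Dlx2 (0.34), homeobox factors that are also among the sorted interneuron markers described below, rose. Of 8 partners and substrates of UBE3A, 1 was higher (12.5%), which was again Herc2.

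**Figure D4:**
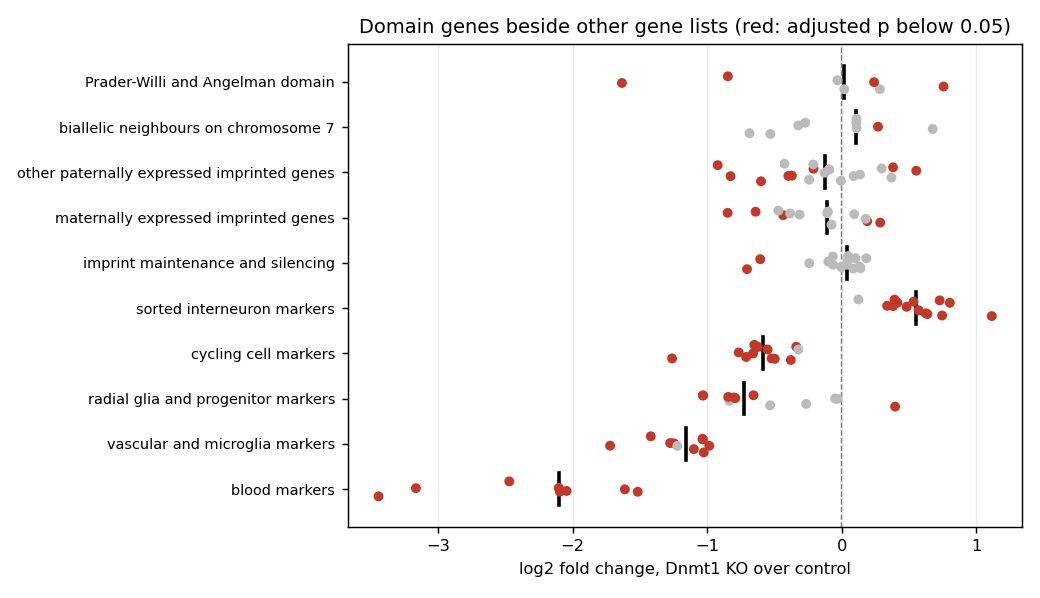
Log2 fold change (knockout over control) of each tested gene in the domain and in other lists; red points passed an adjusted p of 0.05 in limma, black bars are list medians and the dashed line is the median of all tested genes. The 7 domain genes spread from -1.63 to 0.76, whereas interneuron markers lie above 0 and cycling, radial glia, vascular and blood markers mostly lie below it.

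Marker genes of other cells moved with the genotype, and fewer cells of a type cannot be told apart here from less RNA per cell. Markers of the sorted interneurons were higher for 13 of 14 tested, and their summed level ran from 25744 to 25785 normalized counts in the controls and from 38237 to 38726 in the knockouts. Cycling-cell markers were lower for 11 of 12 (6986 to 7317 against 4957 to 4958), and radial glia and progenitor markers for 6 of 12, with 1 higher (11016 to 11190 against 6816 to 7037). Excitatory lineage markers were lower for 7 of 10 and higher for 1 (Bcl11b), with a median log2 fold change of -0.78. Their summed level, in which abundant genes weigh most, overlapped between genotypes (6221 to 6297 against 6064 to 6286). Blood markers were lower for 8 of 8 (2433 to 2610 against 587 to 592). Vascular and microglia markers were lower for 9 of 10 (776 to 812 against 336 to 352), and general neuron markers were higher for 4 and lower for 1 of 12. Preoptic and hypothalamic markers, from a region where Ndn and Magel2 are known to be active, were lower for 2 of 6 tested (Otp and Fezf1), with sums of 514 to 535 against 308 to 311. Nuclear-retained RNAs were higher for 4 and lower for 1 of 9. The part of these other cells in the falls of Ndn and Peg12 was not tested.

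Single-exon protein-coding genes, the class of Ndn, Magel2, Mkrn3 and Peg12, gave 29 higher (7.71%) and 80 lower (21.3%) of 376 tested. The shares over all genes tested were 8.3% and 8.99%. Without histone genes, 28 were higher (8.86%) and 35 lower (11.1%) of 316, near those shares, with a median log2 fold change of 0.02. Their log2 fold changes ran from -3.08 to 1.25. The 4 domain genes belong to this set, so its range holds them by construction.

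For each called domain gene with a mean of at least 100 normalized counts, the protein-coding genes with the most similar profile over the 4 libraries were sought among 8145 genes by Euclidean distance of centred log2 values. For Ndn these were Inppl1 (distance 0.0302), Cdc20 (0.0547) and Plxnd1 (0.0656). For Ube3a they were Btbd8, Qtrt2 and Kif2a, at distances from 0.0107 to 0.0130, although Btbd8 and Qtrt2 were not called (limma adjusted p = 0.103 and 0.386). Snhg14 had Mmp2 (0.0585), Elapor2 (0.129) and Pcdhga8 (0.163), so its profile had less close counterparts. With 4 libraries in 2 genotypes, such distances reflect both the genotype difference and the spread between libraries of a genotype.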

How the data were processed

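RNA from sorted cells was made into stranded total-RNA libraries and sequenced as paired ends by the authors, who deposited 1 table of normalized counts per gene (a signal, each count divided by a DESeq2 size factor). Per the labels, Trim Galore, STAR, Salmon, R 4.3.2 and DESeq2 1.32.0 were used on GRCm39. How reads were assigned to strand is not given in the sources used here.

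Whole reads were recovered from the smallest step of each column: 89965 of 89965 values above 0 (100.0%) were whole within 0.0001 read. Libraries held 6970247 to 8376711 reads. Genes were placed on GRCm39 with GENCODE, and 14285 of 14323 tested genes had a gene model. The normalized counts were analysed as log2(value + 1) with limma 3.58.1 (R 4.3.3, trended variance, genotype only), for genes with a mean of at least 10, with Benjamini-Hochberg adjustment over all 14323 genes. Genes were called at an adjusted p below 0.05. A read-count test on the recovered reads called 2528 genes in edgeR 4.0.16 and 1150 in DESeq2 1.42.0. The scripts were tested on simulated data. Alternatives were pseudocounts of 0.5 and 10, filters of 1 and 50, TMM, quantile normalization, no variance trend, edgeR, DESeq2, limma-voom, removal of the length and GC trend (splines with 5 degrees of freedom), a replicate block and leaving out each library.

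The 7 genes and all lists were chosen with earlier results of these data known. Named genes were the 7, their paralogs, Dnmt1 and Uhrf1, up to 3 called genes per direction in each list by size of change, called genes within the interval, and the 3 closest profiles. Deviations of same-numbered libraries correlated at -0.085, so replicate numbers did not pair them.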

Additional observations from a re-analysis of the deposited data

How the results depend on the processing

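Ndn and Peg12 kept their direction under all 16 alternatives and their call under 15. The calls were lost in limma without the variance trend (adjusted p = 0.0657 and 0.0722), where their log2 fold changes were the same as reported (-0.85 and -1.63) and 0 of 7 domain genes and 0 of all genes were called (3339 genes at an unadjusted p below 0.05). DESeq2 called 2 of the 7 genes and 1150 genes in all. Snrpn turned to -0.032 under quantile normalization, where the adjusted p of Ube3a was 0.0755. Removing the length and GC trend turned Snrpn to -0.18, Snhg14 to -0.037, Magel2 to 0.023 and Ube3a to -0.18. The cause of these turns was not tested.

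Leaving out each library gave 1525 to 2205 called genes in limma, lowest without control 2 (1525) and control 1 (1648). The log2 fold change of Ndn ran from -0.91 to -0.78, of Peg12 from -1.93 (without control 2) to -1.34 (without control 1), and of Snhg14 from 0.49 to 1.02, all still called. Snhg14 was at 0.49 without control 1, more than 1.5 times below its value of 0.76. That of Snrpn ran from -0.00047 to 0.039. In these fits 1 genotype had 1 library, which is assumed to vary like the others. With a replicate block, limma called 2957 genes in all, 1402 higher and 1555 lower, and the same 4 of the 7 domain genes. Among the other genes named, calls were lost under 7 of 16 alternatives for Maged2, 5 for Igf2r, 4 each for A330076H08Rik, Asb4, H19 and Frat1, and 3 each for Meg3 and Fezf1, and under 5 of 15 for Gm44559. Without 1 library, the log2 fold change of Kcnq1ot1 fell to 0.34 (knockout 1) and that of Igf2r to 0.17 (control 2). No scaling moved the median of all genes by over 0.1 on the log2 scale.

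With 2 libraries per genotype, differences within the intervals given for Snrpn, Magel2 and Mkrn3 were not detectable.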
